A study of Mus musculus with 18 samples.

Results

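Diclofenac was set against ibuprofen in 3T3-L1 adipocytes, with 3 arrays for each drug, which together are 6 of the 18 arrays of the series. The arrays were chosen by the treatment given in the labels, and all genes on them were examined. 3T3-L1 is a mouse preadipocyte line that becomes fat-storing adipocytes in culture. Per the labels, cells that had been differentiated for 7 days received 25 µM sodium diclofenac, 75 µM ibuprofen or the vehicle DMSO, the last also with 3 arrays, and RNA was taken 24 hours later. The arrays of the other treatments of the series, 100 nM rosiglitazone, 10 µM indomethacin and 10 µM GQ16, entered the fit to estimate the spread between samples, and their group means are given beside those of a few genes at the close. The concentrations of diclofenac and ibuprofen differ, so the identity of the drug and its dose cannot be told apart in any difference given here. Whether the 3 samples of a treatment were separate cultures is not stated in the labels. The p-values therefore reflect only how far these samples lie apart, and that spread may be technical.

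Both drugs are non-steroidal anti-inflammatory drugs that block the cyclooxygenases, the enzymes that make prostaglandins from arachidonic acid. Diclofenac is a phenylacetic acid that carries a dichloroanilino ring, and ibuprofen is an arylpropionic acid with an isobutyl group. Several drugs of this class also bind PPARγ, a nuclear receptor that adipocytes need to form and that switches on genes for lipid uptake, storage and oxidation. The series title concerns how such drugs activate PPARγ. PPARγ targets are described first, and after them the stress pathway of the transcription factor ATF4, which is turned on when amino acids are scarce or the endoplasmic reticulum is strained and which induces CHOP (gene Ddit3) and GADD34 (gene Ppp1r15a).

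Values are the authors' processed intensities on a log2 scale, 1 per probe and array, called levels here. A level above 6.18 counted as above background, and on each single array 42.1% of probes lay above it. After a filter on low values, 10957 genes were tested with limma. A gene is said to be called, or to have risen or fallen, when its adjusted p was under 0.05, and differences are diclofenac minus ibuprofen on the log2 scale with the fit's standard error (SE, n = 3 per group). The root mean square deviation of an array from its group's mean was 0.119 to 0.134 for diclofenac, 0.134 to 0.147 for ibuprofen and 0.12 to 0.207 for DMSO, with DMSO replicate 3 the highest. Diclofenac replicates 1, 2 and 3 lay on slides 2, 1 and 3, all 3 ibuprofen arrays on slide 2, DMSO replicate 3 on slide 2 and the other DMSO arrays on slide 1. Estimates that carry slide as an additional term (called blocked), and estimates from slide 2 alone, are therefore given beside the leading results. All 11 adipocyte markers with a probe were above background on each of the 6 drug arrays. Of the markers of other cells, 17 of 28 preadipocyte and fibroblast genes, 3 of 18 macrophage genes, 3 of 12 endothelial genes and 5 of 13 muscle and bone genes were so. Macrophage genes Csf1r, Cd14 and Aif1 and endothelial genes Kdr, Flt1 and Egfl7 were the ones above background on all of them. Macrophage genes Adgre1 and Ptprc and the endothelial gene Cdh5 were above background on none of them.

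With all 18 arrays in the fit, the drugs separated on a small set of genes, led by the hormone Fgf21, which was lower with diclofenac. Between the drugs 95 of 10957 genes (0.867%) differed, of which 37 (0.338%) were higher and 58 (0.529%) lower with diclofenac. With each array shifted to one median over the tested genes, 35 were higher and 95 lower. The balance reversed in some alternative fits. With only the diclofenac and ibuprofen arrays 443 were higher and 369 lower, and with array weights 518 and 471. Without DMSO replicate 3 and rosiglitazone replicate 1 together, 366 were higher and 336 lower. In the other alternatives with called genes the lower ones were more numerous, such as 4 higher and 13 lower with slide as a block. Among the 95 called genes 4 were over 2-fold higher and 11 over 2-fold lower with diclofenac, and the median size of a called difference was 0.71. The median difference over all tested genes was 0.008, and 51.7% of them lay above 0. The 95% interval of the difference lay within 1 log2 unit of 0 for 10636 genes (97.1%). For those genes a difference of over 2-fold was outside the interval, for the normalized level of the probe used.

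Against DMSO, diclofenac changed 230 genes (2.1%), with 68 higher (0.621%) and 162 lower (1.48%), and ibuprofen changed 1037 (9.46%), with 467 higher (4.26%) and 570 lower (5.2%). The balance of the ibuprofen calls depended on scaling, since 579 were higher and 472 lower with each array shifted to one median. The gap between the drugs' counts depended on slide. With slide as a block diclofenac changed 278 genes, 91 higher and 187 lower. In that fit ibuprofen changed 380, with 134 higher and 246 lower. These comparisons share the DMSO arrays with each other and the drug arrays with the direct comparison, and are given side by side as levels. For 51 of the 95 called genes the DMSO mean lay between the means of the drugs. For the other 44 the diclofenac mean lay between ibuprofen and DMSO, and for 0 the ibuprofen mean lay between diclofenac and DMSO. These positions compare means with no margin, and their shares over all tested genes were not counted. The 51 include genes such as Adm2, whose diclofenac and DMSO means were both 7.08. A DMSO mean between the drugs is therefore no sign that both drugs moved a gene. Of the 95 genes, 16 belong to at least 1 of the 27 gene lists and 79 to none.

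**Figure D1:**
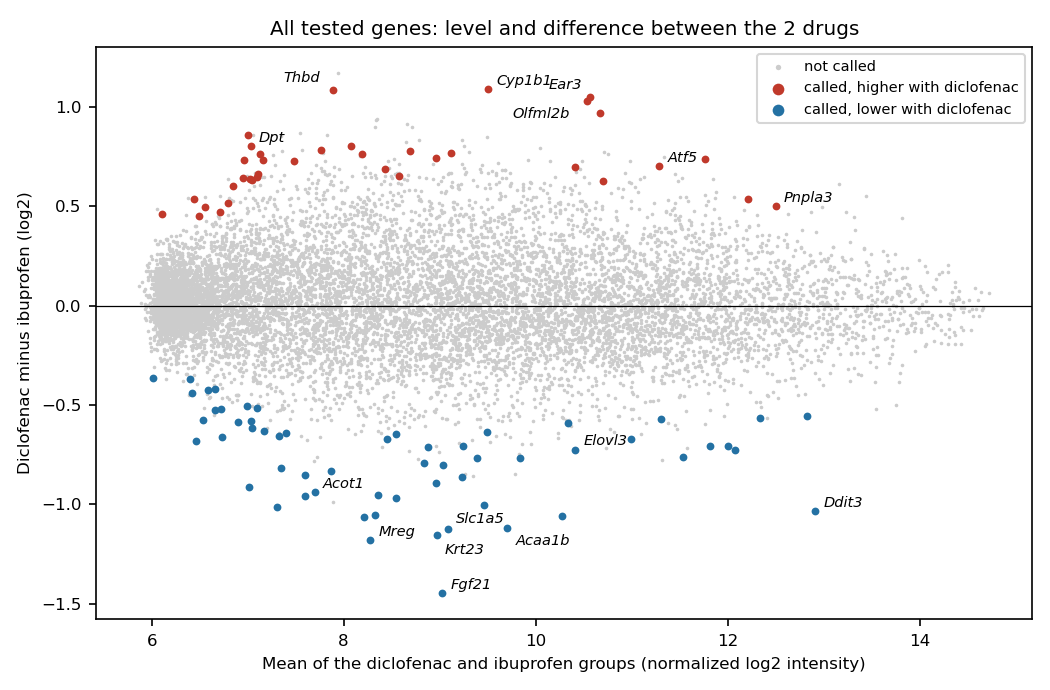
Difference between diclofenac and ibuprofen (log2, vertical axis) against the mean level of both groups (normalized log2 intensity, horizontal axis) for the 10957 tested genes. Grey points were not called, red points were higher with diclofenac (37) and blue points lower (58); Fgf21 is the lowest point at -1.45 and Cyp1b1 the highest called one at 1.09.

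The PPARγ target Fgf21 showed the largest called difference. Fgf21 encodes a secreted hormone that adjusts lipid and glucose use, and it is a target of PPARγ in adipocytes and of ATF4 in stressed cells. Its promoter is shown because it carries a motif of the stress pathway, and the promoters of Ddit3 and Ppp1r15a are shown beside it because these stress genes were also lower with diclofenac. Sequences are RefSeq promoter windows of 300 bases on GRCm38.p6, from 250 bases before to 50 after the annotated start, written 5′ to 3′ on the gene's strand. Capitals mark matches on either strand to TGATGNAA (the element bound by ATF4 with C/EBP proteins), to AGGTCA (a half-site of nuclear receptors) and to TGACGTCA (the cyclic AMP response element).
Fgf21, chr7:45615441-45615740, minus strand: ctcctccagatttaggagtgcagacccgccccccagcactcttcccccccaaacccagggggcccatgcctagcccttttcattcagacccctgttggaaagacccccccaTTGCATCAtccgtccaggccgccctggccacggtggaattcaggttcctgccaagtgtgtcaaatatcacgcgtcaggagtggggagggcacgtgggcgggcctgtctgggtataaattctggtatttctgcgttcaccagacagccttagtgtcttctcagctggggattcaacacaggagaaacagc
Ddit3, chr10:127290543-127290842, plus strand: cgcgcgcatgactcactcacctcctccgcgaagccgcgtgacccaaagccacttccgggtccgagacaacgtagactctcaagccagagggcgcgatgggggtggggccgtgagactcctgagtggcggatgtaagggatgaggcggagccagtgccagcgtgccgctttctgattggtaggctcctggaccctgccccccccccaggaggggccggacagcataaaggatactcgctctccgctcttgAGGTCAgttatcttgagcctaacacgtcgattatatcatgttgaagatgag
Ppp1r15a, chr7:45526219-45526518, minus strand: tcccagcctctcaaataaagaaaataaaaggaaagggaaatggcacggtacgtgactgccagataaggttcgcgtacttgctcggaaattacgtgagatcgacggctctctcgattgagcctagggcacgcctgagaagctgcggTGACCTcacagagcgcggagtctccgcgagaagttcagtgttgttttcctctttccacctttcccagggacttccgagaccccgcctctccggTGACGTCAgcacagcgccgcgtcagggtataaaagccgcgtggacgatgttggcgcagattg

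In the Fgf21 window the match reads TTGCATCA, TGATGNAA on the opposite strand, with its first base at -139 from the start. The Ddit3 window holds AGGTCA with its first base at -1. In the Ppp1r15a window AGGTCA lies on the opposite strand at -105, and TGACGTCA lies at -12. Of all 32851 promoter windows, 3.97% hold TGATGNAA, 16.3% hold AGGTCA, 1.79% hold TGACGTCA and 0.0396% hold a direct repeat of AGGTCA spaced by 1 base, the arrangement PPARγ binds with RXR. Of the 11349 windows of tested genes, 2.28%, 12.7%, 2.85% and 0.0352% do. Among the 62 windows of genes that were lower with diclofenac, 2, 6, 4 and 0 hold these motifs, and among the 42 windows of genes that were higher, 1, 3, 1 and 0 do. These letter matches describe the windows alone, and motifs were not searched outside them.

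The level of Fgf21 was 8.17, 8.19 and 8.55 on the diclofenac arrays, 9.97, 9.76 and 9.52 on the ibuprofen arrays and 7.46, 7.13 and 7.64 on the DMSO arrays. The groups do not overlap, and diclofenac lies between the vehicle and ibuprofen. The difference was -1.45 ± 0.17 (adjusted p = 0.000153), a level 2.73-fold higher with ibuprofen. It was -1.42 when blocked by slide and -1.58 within slide 2. Against DMSO it rose by 0.89 with diclofenac (adjusted p = 0.00432) and by 2.34 with ibuprofen (adjusted p = 5.67e-09).

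Acaa1b, a peroxisomal 3-ketoacyl-CoA thiolase that shortens fatty acids, followed the same order. Its level was 9.17, 9.10 and 9.17 with diclofenac, 10.24, 10.59 and 9.97 with ibuprofen and 7.89, 7.77 and 7.84 with DMSO. All diclofenac arrays stood above every DMSO array and below every ibuprofen array. The difference between the drugs was -1.12 ± 0.16 (adjusted p = 0.000824). The probe may also bind the transcript of the close relative Acaa1a, whose own probe gave -0.09 (95% interval -0.33 to 0.15). The fatty acid elongase Elovl3, a marker of cold-exposed fat, had levels of 10.24, 9.79 and 10.11 with diclofenac, 10.62, 11.03 and 10.66 with ibuprofen and 8.67, 8.57 and 8.76 with DMSO. Here too the groups do not overlap and diclofenac is in the middle. Elovl3 differed by -0.72 ± 0.18 (adjusted p = 0.047), a call that was lost when blocked by slide (-0.62, adjusted p = 0.192) and when any 1 of the 6 drug arrays was left out (adjusted p up to 0.334). Krt23, a keratin that is in none of the lists, ran the same way without overlap, with 8.41, 8.21 and 8.55 on the diclofenac arrays, 9.57, 9.58 and 9.49 on the ibuprofen arrays and 7.38, 7.26 and 7.80 on the DMSO arrays. It differed by -1.16 ± 0.17 (adjusted p = 0.000824).

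**Figure D2:**
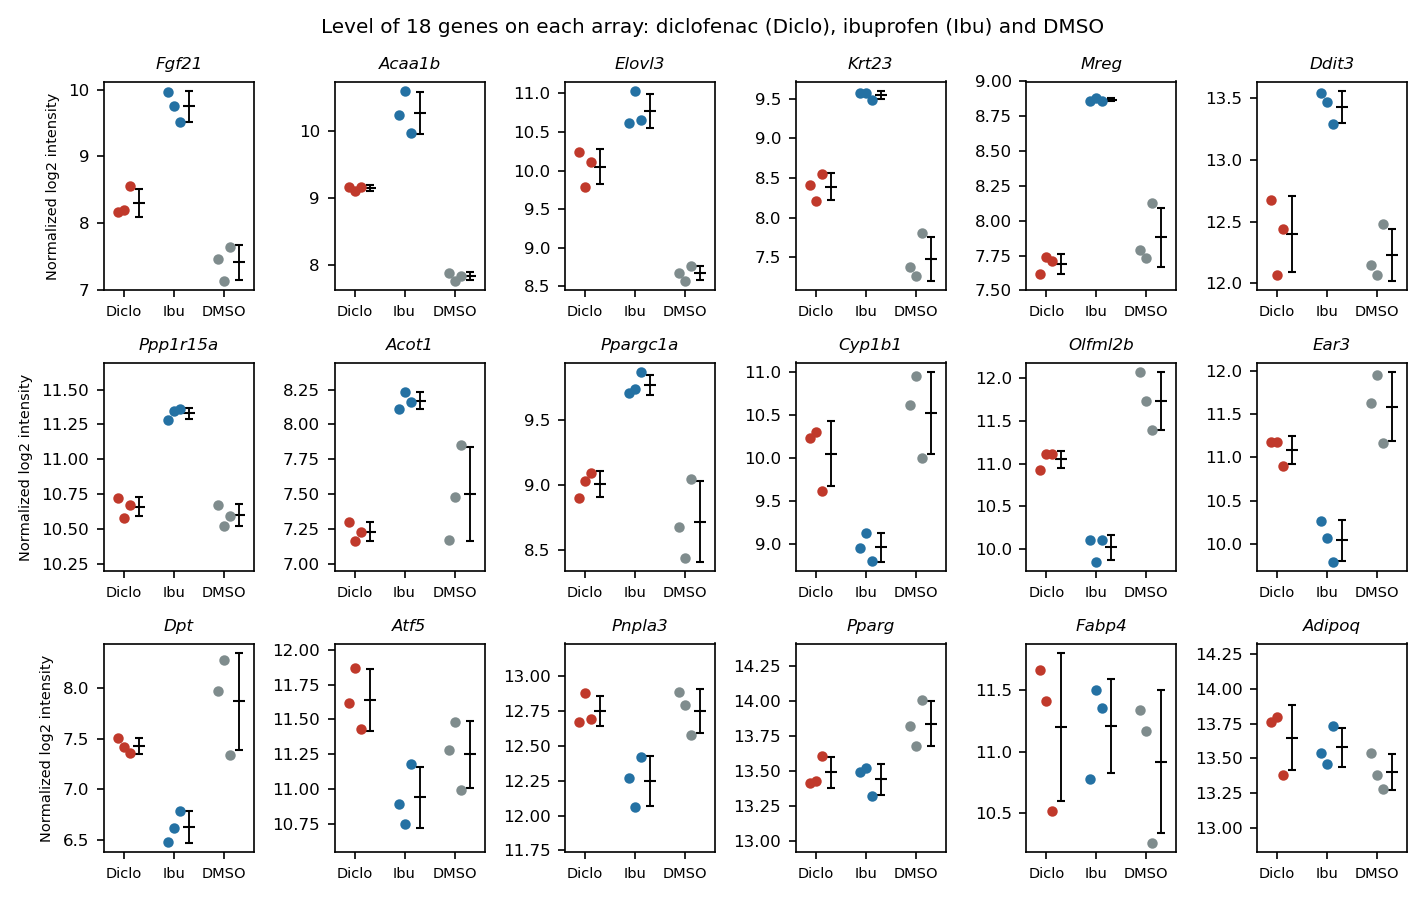
Normalized log2 intensity of 18 genes on each of the 3 diclofenac (red), 3 ibuprofen (blue) and 3 DMSO (grey) arrays; black bars give the mean and SD, and each panel has its own vertical axis, which does not start at 0. Fgf21, Acaa1b, Elovl3 and Krt23 stand at an intermediate level with diclofenac, while Mreg, Ddit3 and Ppp1r15a stand near DMSO with diclofenac and above it with ibuprofen.

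Of the 27 PPARγ target genes tested, 0 were higher, 3 were lower with diclofenac (Fgf21, Acaa1b and Elovl3) and 24 did not pass, against 0.338% and 0.529% of all genes. This list, like the others, was chosen with earlier results of these data known, so its counts beside these shares are no test. The list's median difference was -0.15, with -0.16 blocked and -0.17 within slide 2, beside 0.008 over all genes, and 4 of the 27 lay above 0. Against DMSO, 3 of the 27 rose with diclofenac (median 0.17), where 0.621% of all genes rose. With ibuprofen 12 rose and 1 fell (median 0.35), against 4.26% and 5.2% of all genes. These counts against DMSO, and those of the lists below, carry no slide term. With slide as a block 91 of all tested genes rose with diclofenac and 134 with ibuprofen. Among those that did not pass between the drugs, the fatty acid transporter Slc27a1 had -0.57 (adjusted p = 0.105), the fatty acid translocase Cd36 -0.55 (0.137) and the pyruvate dehydrogenase kinase Pdk4 -0.45 (0.183). Their 95% intervals ran from -0.92 to -0.21, from -0.93 to -0.18 and from -0.79 to -0.11. The lipid droplet protein Cidec had the highest value of the list, 0.44 (adjusted p = 0.173).

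Central adipocyte genes did not pass between the drugs. Fabp4, which carries fatty acids inside the adipocyte, had levels of 11.66, 11.41 and 10.52 with diclofenac, 10.78, 11.50 and 11.35 with ibuprofen and 11.34, 11.17 and 10.26 with DMSO. The 3 groups overlap, and 1 array stands low in each. Its difference of -0.02 had an interval from -0.56 to 0.53, the widest of the genes in this paragraph. The adipokine Adipoq differed by 0.07 (interval -0.19 to 0.32), the lipid droplet coat protein Plin2 by -0.10 (-0.44 to 0.25), the lipoprotein lipase inhibitor Angptl4 by -0.22 (-0.46 to 0.02) and the adipokine Retn by 0.01 (-0.34 to 0.36). For Pparg itself the levels were 13.41, 13.43 and 13.61 with diclofenac, 13.49, 13.52 and 13.32 with ibuprofen and 13.82, 13.68 and 14.01 with DMSO. The drug groups overlap and both lie below DMSO. The difference was 0.05 (interval -0.20 to 0.29), while 2 dimmer Pparg probes, whose differences were not tested here, gave 0.49 and 0.79. Over the 24 genes of adipocyte identity and differentiation 0 were called and the median was -0.06.

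**Figure D3:**
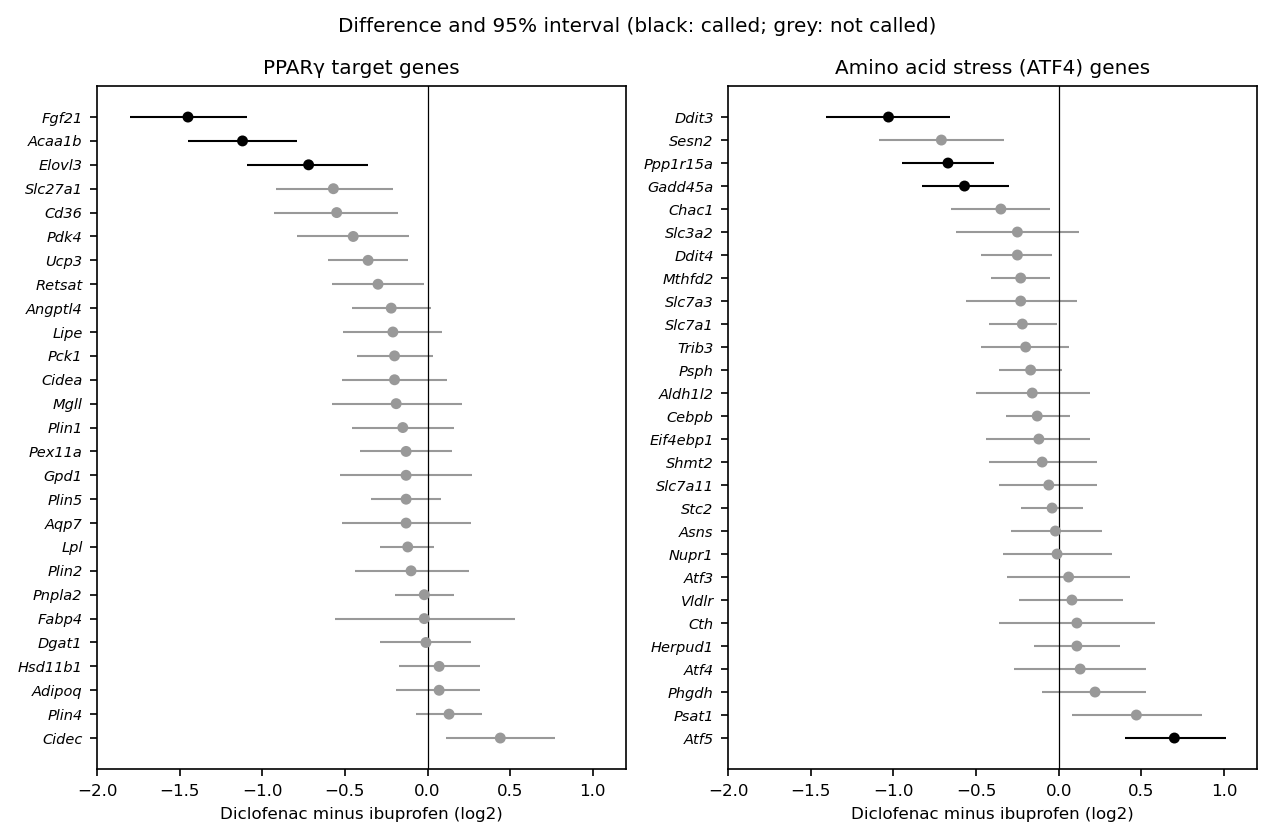
Difference between diclofenac and ibuprofen (log2, horizontal axis) with its 95% interval for each tested gene of the PPARγ target list (left, 27 genes) and of the amino acid stress list (right, 28 genes). Black marks the called genes and grey the others; in both lists the values below 0 outnumber those above.

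Of the ATF4 stress genes, Ddit3, Ppp1r15a and Gadd45a were lower with diclofenac than with ibuprofen, and Atf5 was higher. Ddit3, which encodes the stress transcription factor CHOP, had levels of 12.68, 12.07 and 12.44 with diclofenac, 13.54, 13.47 and 13.29 with ibuprofen and 12.15, 12.07 and 12.48 with DMSO. The diclofenac and DMSO arrays overlap, and every ibuprofen array lies above them. The difference between the drugs was -1.03 ± 0.18 (adjusted p = 0.00646), and a second Ddit3 probe gave -0.67. Blocked, the difference was -0.89 (adjusted p = 0.0336), within slide 2 it was -0.75, and with 1 drug array left out its adjusted p reached 0.095 and the call was kept in 4 of 6 cases. Against DMSO, Ddit3 differed by 0.17 with diclofenac (adjusted p = 0.774) and rose by 1.2 with ibuprofen (adjusted p = 0.000121).

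Ppp1r15a, the phosphatase subunit GADD34 that restores translation after stress, had levels of 10.72, 10.58 and 10.67 with diclofenac, 11.28, 11.35 and 11.36 with ibuprofen and 10.67, 10.52 and 10.59 with DMSO. The growth arrest gene Gadd45a had 11.20, 10.96 and 10.91 with diclofenac, 11.45, 11.68 and 11.64 with ibuprofen and 10.98, 10.95 and 11 with DMSO. In both genes the ibuprofen arrays stand apart from the other groups. Ppp1r15a differed by -0.67 ± 0.14 (adjusted p = 0.0198) and Gadd45a by -0.57 ± 0.13 (adjusted p = 0.0322), and both calls were lost when any 1 drug array was left out (adjusted p up to 0.145 and 0.204). Blocked by slide, they were -0.71 (adjusted p = 0.0762) and -0.55 (adjusted p = 0.147) and did not pass, and a second Gadd45a probe gave -0.24.

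The transcription factor Atf5 went the other way, with 11.62, 11.87 and 11.43 on the diclofenac arrays, 10.89, 10.75 and 11.18 on the ibuprofen arrays and 11.28, 11.48 and 10.99 on the DMSO arrays. Its DMSO levels overlap those of both drugs. The difference was 0.70 ± 0.15 (adjusted p = 0.0243), and its call was kept in 2 of 6 cases with 1 drug array left out (adjusted p up to 0.207). The slide block also ended the call (0.60, adjusted p = 0.147). Of the 28 tested genes of the list, 1 was higher, 3 were lower and 24 did not pass, against 0.338% higher and 0.529% lower over all genes. The list's median was -0.12, or -0.12 blocked and -0.11 within slide 2, with 8 of 28 above 0. Among the genes that did not pass, the sestrin Sesn2 had -0.71 (adjusted p = 0.0632), the glutathione-degrading enzyme Chac1 -0.35 (0.25), the asparagine synthetase Asns -0.02 (0.973) and Atf4 itself 0.13 (0.809). Against DMSO, 1 of the 28 rose with diclofenac (median 0.06) and 8 rose with ibuprofen (median 0.22), where 0.621% and 4.26% of all genes rose. The gene that rose with diclofenac was Atf3, at 0.68 (adjusted p = 0.0426), beside 0.62 with ibuprofen (adjusted p = 0.028). The list of 19 aminoacyl-tRNA synthetases (median -0.05) had 0 called members between the drugs. So had the list of 20 endoplasmic reticulum chaperones and unfolded protein response genes (median 0.12). Txndc5, an endoplasmic reticulum protein outside that list, was higher with diclofenac (0.53, adjusted p = 0.0366, or 0.0815 with slide as a block).

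Single enzymes of fatty acid handling were lower with diclofenac. Acot1, a cytosolic acyl-CoA thioesterase, had levels of 7.30, 7.16 and 7.23 with diclofenac, 8.11, 8.23 and 8.16 with ibuprofen and 7.17, 7.48 and 7.85 with DMSO. The drug groups do not overlap, and the DMSO arrays spread more widely than either and overlap the diclofenac arrays. Acot1 differed by -0.94 ± 0.15 (adjusted p = 0.00317), or -0.84 blocked (adjusted p = 0.0412) and -0.87 for slide 2 alone, and a second probe gave -0.48. Its probe may also bind the transcript of its close relative Acot2, whose own value was -0.86 (adjusted p = 0.0572). Of 21 mitochondrial fatty acid oxidation genes 1 was lower and 0 were higher (median -0.09), against 0.529% and 0.338% of all genes. The lower gene was the mitochondrial thiolase Acaa2, at -0.71 ± 0.15 (adjusted p = 0.0291), with -0.57 to -0.05 at other probes. Of 25 peroxisomal genes 2 were lower and 0 higher (median -0.04), beside the same shares of all genes. The lower genes were Acaa1b and the carnitine acetyltransferase Crat. Crat stood at 12.04, 11.24 and 11.68 with diclofenac, 12.38, 12.40 and 12.29 with ibuprofen and 11.78, 11.75 and 11.75 with DMSO. The diclofenac arrays spread widely around DMSO, and the difference of -0.71 ± 0.16 (adjusted p = 0.0291) was -0.32 within slide 2. With 1 drug array left out, the calls of Acaa2 and Crat were each kept in 1 of 6 cases (adjusted p up to 0.178 and 0.27), and both were lost with slide as a block (-0.55, adjusted p = 0.197, and -0.58, adjusted p = 0.185).

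Ppargc1a, the coactivator PGC-1α that drives mitochondrial and thermogenic genes, had levels of 8.90, 9.03 and 9.09 with diclofenac, 9.71, 9.74 and 9.87 with ibuprofen and 8.68, 8.44 and 9.05 with DMSO. Every ibuprofen array is above all others. The difference was -0.77 ± 0.17 (adjusted p = 0.0332), against -0.59 with the slide term (adjusted p = 0.23) and -0.88 within slide 2. Ppargc1a and Elovl3 were the 2 lower genes among 11 tested of the thermogenic list, whose median was -0.03 and of which 0 were higher. Over all genes 0.529% were lower and 0.338% higher, the shares to set beside each list of this paragraph. In the glycolysis and hypoxia list 1 of 26 genes was lower, 0 were higher, and the median was 0.01. The lower gene was the phosphofructokinase Pfkp at -0.76 ± 0.17 (adjusted p = 0.0291, with -0.35 at a second probe). The enolase Eno2, which is outside this list, was also lower (-0.71, adjusted p = 0.0366, or 0.192 with slide as a block). Oxidative phosphorylation (34 genes, median 0.06) and lipolysis (15 genes, median -0.10) had 0 called members. In fatty acid and triglyceride synthesis 1 of 21 genes was higher and 0 lower (median 0.02). This was the lipid droplet protein Pnpla3, at 12.67, 12.88 and 12.69 with diclofenac, 12.27, 12.06 and 12.42 with ibuprofen and 12.89, 12.79 and 12.58 with DMSO, where diclofenac overlaps the vehicle and ibuprofen lies below both. Its difference was 0.50 ± 0.12 (adjusted p = 0.0391), while the fatty acid synthase Fasn had 0.65 and did not pass (adjusted p = 0.142). The calls of Ppargc1a, Pfkp and Pnpla3 were lost when any 1 drug array was left out (adjusted p up to 0.16, 0.225 and 0.282), and those of Pfkp and Pnpla3 also with slide as a block (-0.72, adjusted p = 0.102, and 0.42, adjusted p = 0.21).

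Other leading genes that were lower with diclofenac belong to none of the lists. Mreg, melanoregulin, a protein of organelle transport, had levels of 7.62, 7.74 and 7.71 with diclofenac, 8.86, 8.88 and 8.86 with ibuprofen and 7.79, 7.73 and 8.13 with DMSO. The ibuprofen arrays are tightly grouped above all others, and the difference was -1.18 ± 0.16 (adjusted p = 0.000824), with -0.72 at a second probe. The cyclin-dependent kinase inhibitor Cdkn1b (p27), which restrains entry into the cell cycle, had 7.06, 7.09 and 7.21 with diclofenac, 8.17, 7.97 and 8.10 with ibuprofen and 7.38, 7.16 and 7.59 with DMSO. The ibuprofen arrays again lie above all others. Its difference was -0.96 ± 0.16 (adjusted p = 0.00379), with -0.27 at a second probe. The mitochondrial carrier Slc25a30 had 7.80, 7.62 and 7.98 with diclofenac, 8.73, 8.84 and 8.99 with ibuprofen and 8.22, 8.14 and 8.60 with DMSO, so that the vehicle lay between the drugs. It differed by -1.05 ± 0.19 (adjusted p = 0.00646), and neither drug's own change from DMSO passed (-0.52 with diclofenac, adjusted p = 0.162; 0.53 with ibuprofen, adjusted p = 0.0717). Mreg and Cdkn1b stayed called whichever drug array was left out, and Slc25a30 in 5 of 6 cases (adjusted p up to 0.0948). Blocked by slide, Mreg (-1.21, adjusted p = 0.00223) and Cdkn1b (-0.99, adjusted p = 0.0138) kept their calls, and that of Slc25a30 was lost (-0.84, adjusted p = 0.0815).

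In 6 of the 15 leading lower genes, DMSO replicate 3 stood nearer to the ibuprofen mean than to the other DMSO arrays. This array lay on the slide of the ibuprofen arrays. The 6 genes (Slc1a5, Cast, Prrg1, Gk5, Slc25a30 and Acot1) were singled out after their values were seen. The pattern also occurred among the leading higher genes, such as Ftsj3 (DMSO levels 7.38, 7.54 and 6.81, ibuprofen mean 6.57) and Thbd. Its share over all genes was not counted. The glutamine transporter Slc1a5 had levels of 8.52, 8.26 and 8.79 with diclofenac, 9.76, 9.58 and 9.61 with ibuprofen and 7.89, 8.02 and 9.33 with DMSO. The calpain inhibitor Cast had 7.69, 7.42 and 7.92 with diclofenac, 8.88, 8.69 and 8.65 with ibuprofen and 7.28, 7.05 and 8.32 with DMSO. In both genes diclofenac replicate 1, from the same slide, stays with its group. Slc1a5 differed by -1.12 ± 0.26 (adjusted p = 0.0377), or -0.73 with the slide term (adjusted p = 0.21) and -1.12 within slide 2. Cast differed by -1.06 ± 0.25 (adjusted p = 0.0392), or -0.82 with the slide term (adjusted p = 0.148) and -1.05 within slide 2. Both calls were lost when any 1 drug array was left out (adjusted p up to 0.264 and 0.27).

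The membrane protein Prrg1 (-1.02) had levels of 6.73, 6.62 and 7.03 with diclofenac, 7.93, 7.76 and 7.74 with ibuprofen and 6.60, 6.56 and 7.55 with DMSO. The glycerol kinase family member Gk5 (-0.97) had 7.97, 8.12 and 8.09 with diclofenac, 9.13, 8.82 and 9.13 with ibuprofen and 7.98, 7.88 and 8.76 with DMSO. In Gpcpd1, a phosphodiesterase of phospholipid breakdown (-1.06), DMSO replicate 3 lay within the diclofenac range instead, with 9.71, 9.59 and 9.94 for diclofenac, 10.49, 11.13 and 10.81 for ibuprofen and 9.01, 8.84 and 9.87 for DMSO. Blocked by slide, the differences of Prrg1, Gk5 and Gpcpd1 were -0.77, -0.76 and -0.85 and did not pass (adjusted p = 0.147, 0.191 and 0.147). The part of slide in these differences was not tested beyond these values. Besides Cdkn1b, probes of a gene disagreed for Cast (-0.27 to -0.07 at other probes), Gpcpd1 (-0.51 to -0.02), Prrg1 (0.07), Gk5 (-0.03), Sh3tc2, a protein of membrane recycling (-1.0 at the probe used, -0.05 at another), and the actin-binding Afap1 (-0.95 at the probe used, -0.17 to 0.02 at others).

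The genes that were higher with diclofenac included the matrix proteins Olfml2b, Dpt and Ccn4. Olfml2b, an olfactomedin-like matrix protein, had levels of 10.93, 11.11 and 11.11 with diclofenac, 10.11, 9.85 and 10.11 with ibuprofen and 12.07, 11.73 and 11.39 with DMSO. Diclofenac lies between ibuprofen and the vehicle without overlap. The difference was 1.03 ± 0.19 (adjusted p = 0.0108), or 0.91 within slide 2, and with slide as a block it was 0.89 and the call was lost (adjusted p = 0.0815). Dermatopontin, Dpt, which binds collagen fibrils, had 7.51, 7.42 and 7.36 with diclofenac, 6.48, 6.62 and 6.79 with ibuprofen and 7.97, 8.28 and 7.34 with DMSO. The ibuprofen arrays lie below all others, and DMSO replicate 3 lies beside the diclofenac arrays. Dpt differed by 0.80 ± 0.19 (adjusted p = 0.0377). The Wnt-induced matricellular protein Ccn4 had 9.35, 9.36 and 9.28 with diclofenac, 8.70, 8.46 and 8.61 with ibuprofen and 9.30, 9.53 and 9.62 with DMSO, so that diclofenac and the vehicle overlap. Ccn4 differed by 0.74 ± 0.15 (adjusted p = 0.0229), and a second probe gave 0.11. With 1 drug array left out the call of Olfml2b was kept in 4 of 6 cases (adjusted p up to 0.0948) and those of Dpt and Ccn4 in 0 (up to 0.178 and 0.14). The calls of Dpt (0.75, adjusted p = 0.178) and Ccn4 (0.76, adjusted p = 0.0815) were also lost with slide as a block.

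Ear3, a member of the mouse eosinophil-associated ribonuclease family, had levels of 11.18, 11.18 and 10.90 with diclofenac, 10.26, 10.07 and 9.79 with ibuprofen and 11.63, 11.96 and 11.17 with DMSO. The drug groups do not overlap, and the lowest DMSO array lies beside the highest diclofenac arrays. It differed by 1.05 ± 0.17 (adjusted p = 0.00379), and its call was kept whichever drug array was left out and with slide as a block (0.99, adjusted p = 0.0292), but genes of this family are near-identical and the probe may bind several of them. Thrombomodulin, Thbd, a cell surface receptor for thrombin, had 8.62, 8.61 and 8.08 with diclofenac, 6.95, 7.04 and 8.06 with ibuprofen and 8.59, 8.76 and 7.88 with DMSO. The third array of each group differs from the first and second, and diclofenac replicate 3 lies barely above ibuprofen replicate 3. Thbd differed by 1.08 ± 0.25 (adjusted p = 0.0381), a call that was kept in 2 of 6 cases with 1 drug array left out (adjusted p up to 0.232) and lost with slide as a block (1.06, adjusted p = 0.12).

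The cytochrome P450 Cyp1b1, which oxidises steroids and foreign compounds and is induced through the aryl hydrocarbon receptor, had levels of 10.23, 10.30 and 9.61 with diclofenac, 8.95, 9.13 and 8.80 with ibuprofen and 10.62, 10.95 and 10.00 with DMSO. The diclofenac and DMSO arrays overlap and every ibuprofen array is lower. It differed by 1.09 ± 0.26 (adjusted p = 0.0415), or 1.02 with the slide term (adjusted p = 0.118) and 1.27 within slide 2, and the call was kept in 1 of 6 cases with 1 drug array left out (adjusted p up to 0.273). Of 37 tested genes of oxidative stress and xenobiotic handling, 2 were higher and 1 was lower (median 0.11), against 0.338% and 0.529% of all genes. The glutathione transferase Gsta1 was the other higher gene. It was below background on all ibuprofen arrays, and its level with diclofenac was at least 1.12-fold higher (measured means 6.34 with diclofenac and 5.88 with ibuprofen, adjusted p = 0.0291, or up to 0.204 with 1 drug array left out and 0.201 with slide as a block). The lower gene was Pgd, an enzyme of the pentose phosphate pathway, at 6.15, 6.0 and 6.22 with diclofenac, 6.83, 6.70 and 6.89 with ibuprofen and 6.21, 6.22 and 6.36 with DMSO. Only 1 of its diclofenac values was above background, so its difference of -0.68 ± 0.10 (adjusted p = 0.000824) rests on levels near the floor.

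The remaining higher genes among the 15 with the largest difference were the histone mRNA translation factor Mif4gd (0.97), the ribosomal RNA processing factor Ftsj3 (0.86), Sertad4 (0.80), the Rab activator subunit Ric1 (0.78), the general transcription factor subunit Taf9 (0.78), the actin-associated Fam107a (0.77), Plac8 (0.76), Smim27 (0.76) and the G protein subunit Gng12 (0.74). Their adjusted p-values ran from 0.0101 for Sertad4 to 0.0497 for Plac8, and of these 9 genes only Ric1 kept its call with slide as a block (0.87, adjusted p = 0.0433). Other probes gave -0.11 and 0.29 for Mif4gd, 0.28 for Taf9 and 0.12 for Gng12. With 1 drug array left out, Ftsj3 stayed called in 3 of 6 cases, Sertad4 and Gng12 in 2, Mif4gd, Ric1 and Smim27 in 1 and Taf9, Fam107a and Plac8 in 0 (adjusted p up to 0.21). The genes nearest to the threshold were Ezh1 (-0.58, adjusted p = 0.0495) and Plac8 inside it and H4c6 (0.67, 0.0514) and Mtr (-0.37, 0.0514) outside it.

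Of 21 preadipocyte and fibroblast markers 1 was higher with diclofenac, Dpt, and 0 were lower, beside 0.338% and 0.529% of all genes. Their median was 0.06. Against DMSO, 1 rose and 2 fell with diclofenac (median -0.14), beside 0.621% and 1.48% of all genes. With ibuprofen 1 rose and 7 fell (median -0.36), beside 4.26% and 5.2% of all genes. The extracellular matrix list (33 genes) had 0 called members between the drugs and a median of 0.07. Its highest value was that of the proteoglycan decorin, Dcn, at 0.62 (interval 0.29 to 0.94, adjusted p = 0.0601). Against DMSO the list's median was -0.27 with diclofenac and -0.29 with ibuprofen. In a bulk sample fewer cells of a type and less RNA per cell cannot be told apart, and the part of residual preadipocytes in these values was not tested.

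Genes that fell with both drugs against the vehicle included Orm2, Errfi1, Lox and Vcam1, and none of these 4 passed between the drugs. The acute-phase protein Orm2 had levels of 10.79, 10.70 and 10.78 with diclofenac, 10.73, 10.73 and 10.52 with ibuprofen and 11.88, 12.11 and 11.94 with DMSO. The EGF receptor inhibitor Errfi1 had 12.41, 12.35 and 12.33 with diclofenac, 12.40, 12.21 and 12.16 with ibuprofen and 13.41, 13.61 and 13.67 with DMSO. The drug groups overlap in both genes and lie below every DMSO array. Between the drugs Orm2 differed by 0.10 (interval -0.19 to 0.38) and Errfi1 by 0.11 (-0.19 to 0.40). The collagen cross-linking enzyme Lox had 12.06, 12.15 and 12.17 with diclofenac, 12.26, 12.23 and 11.75 with ibuprofen and 13.22, 13.19 and 13.28 with DMSO, and differed by 0.05 (-0.25 to 0.35). The adhesion molecule Vcam1 had 9.5, 9.27 and 9.49 with diclofenac, 9.48, 9.84 and 9.39 with ibuprofen and 10.53, 10.46 and 10.52 with DMSO, and differed by -0.15 (-0.47 to 0.16). In these 4 genes the intervals leave out differences of 2-fold or more between the drugs at the probe used.

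Other genes that were named whatever their values also did not pass between the drugs. The matrix protein Tgfbi had 0.49 (interval 0.14 to 0.85, adjusted p = 0.165), the phosphorylase kinase subunit Phkg1 0.40 (0.09 to 0.71, adjusted p = 0.19), the lipogenic regulator Thrsp -0.34 (-0.60 to -0.07, adjusted p = 0.198) and the chemokine Cxcl1 -0.30 (-0.69 to 0.09, adjusted p = 0.473). Of the drug targets, Ptgs2 was above background on 0 arrays at either of its 2 probes, and Ptgs1 had 0 probes with its symbol. The 15 tested genes of the prostaglandin pathway had 0 called members and a median of 0.11. Within it the carbonyl reductase Cbr3 rose with both drugs against DMSO, by 0.92 with diclofenac (adjusted p = 0.000169) and by 1.04 with ibuprofen (adjusted p = 8.61e-06), and differed by -0.12 between them (interval -0.38 to 0.14).

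In all, 9 of the 27 lists held a called member and 18 held 0, with 4 to 34 genes each and medians from -0.16 to 0.21. The highest medians were those of the cell cycle list (29 genes, 0.21, with 0.16 blocked and 0.19 within slide 2) and of the interferon list (19 genes, 0.20, with 0.08 blocked and 0.14 within slide 2). In the cell cycle list 23 of 29 genes lay above 0, among them the replication helicase subunit Mcm5 at 0.47 (adjusted p = 0.126) and the mitotic kinase Plk1 at 0.37 (adjusted p = 0.198), and the lowest was Mcm2 at -0.49 (adjusted p = 0.114). Inflammatory genes (19, median 0.04), insulin and FoxO signalling (31, median 0.01), glucocorticoid targets (18, median 0.01), the circadian clock (15, median 0.13), cholesterol synthesis (18, median -0.03) and ribosomal proteins (14, median 0.02) had 0 called members. So had the few detected macrophage (4, median -0.11), endothelial (4, median -0.16) and muscle and bone genes (5, median -0.05).

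**Figure D4:**
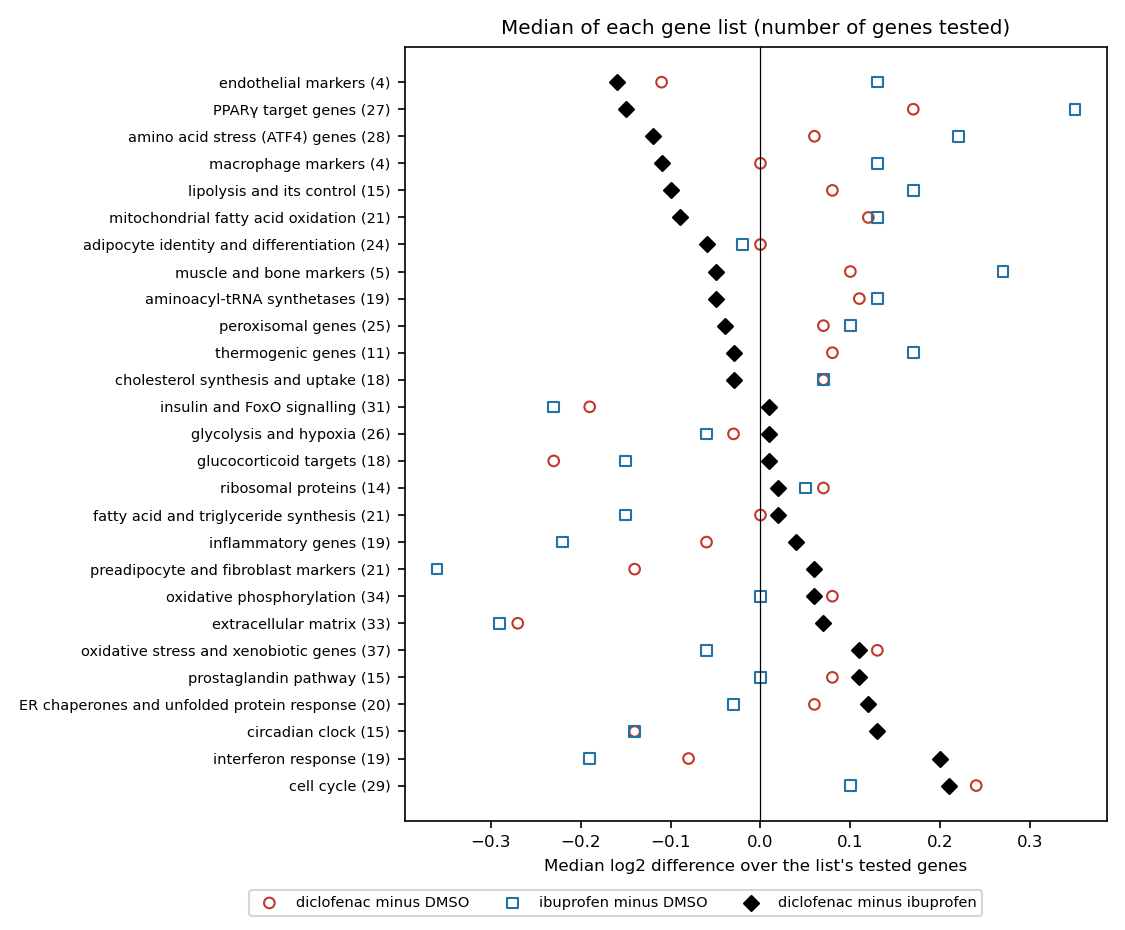
Median log2 difference of each of the 27 gene lists, with the number of genes tested in brackets: diclofenac minus DMSO (red circles), ibuprofen minus DMSO (blue squares) and diclofenac minus ibuprofen (black diamonds). PPARγ targets stand at 0.17, 0.35 and -0.15, and preadipocyte and fibroblast markers at -0.14, -0.36 and 0.06.

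The count of genes between the drugs depended on which arrays set the spread. With the 6 drug arrays alone 812 genes were called, among them all 95, and without DMSO replicate 3 and rosiglitazone replicate 1, each the array of its group farthest from the group's mean, 702 were. With slide as a block 17 were called, all among the 95. Within slide 2, where diclofenac has 1 array, 0 passed in limma and 1312 had an unadjusted p under 0.05, against 1672 (15.3%) in the fit of all arrays. The signs of all 95 differences were the same within slide 2, which shares 4 of the 6 drug arrays with the full comparison. This was fixed in advance, since the drug ranges overlap in none of the called genes. Leaving out 1 drug array gave 20, 11 and 44 genes without diclofenac replicates 1, 2 and 3, and 28, 12 and 26 without ibuprofen replicates 1, 2 and 3. The 11 genes called whichever array was left out were Acaa1b, Acot1, Afap1, Cdkn1b, Ear3, Fgf21, Krt23, Mreg, Pgd, Sbf2 and Syne2. Sbf2 and Syne2 lie outside the rule for named genes and were chosen after their values were seen. A call kept in this way holds for the probe used. Syne2 had -0.85 there and -0.48 to -0.03 at other probes. Other probes gave -0.17 to 0.02 for Afap1, -0.27 for Cdkn1b, -0.72 for Mreg, -0.48 for Acot1 and 0.81 to 0.98 for Ear3. Pgd lay near the floor with diclofenac.

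**Figure D5:**
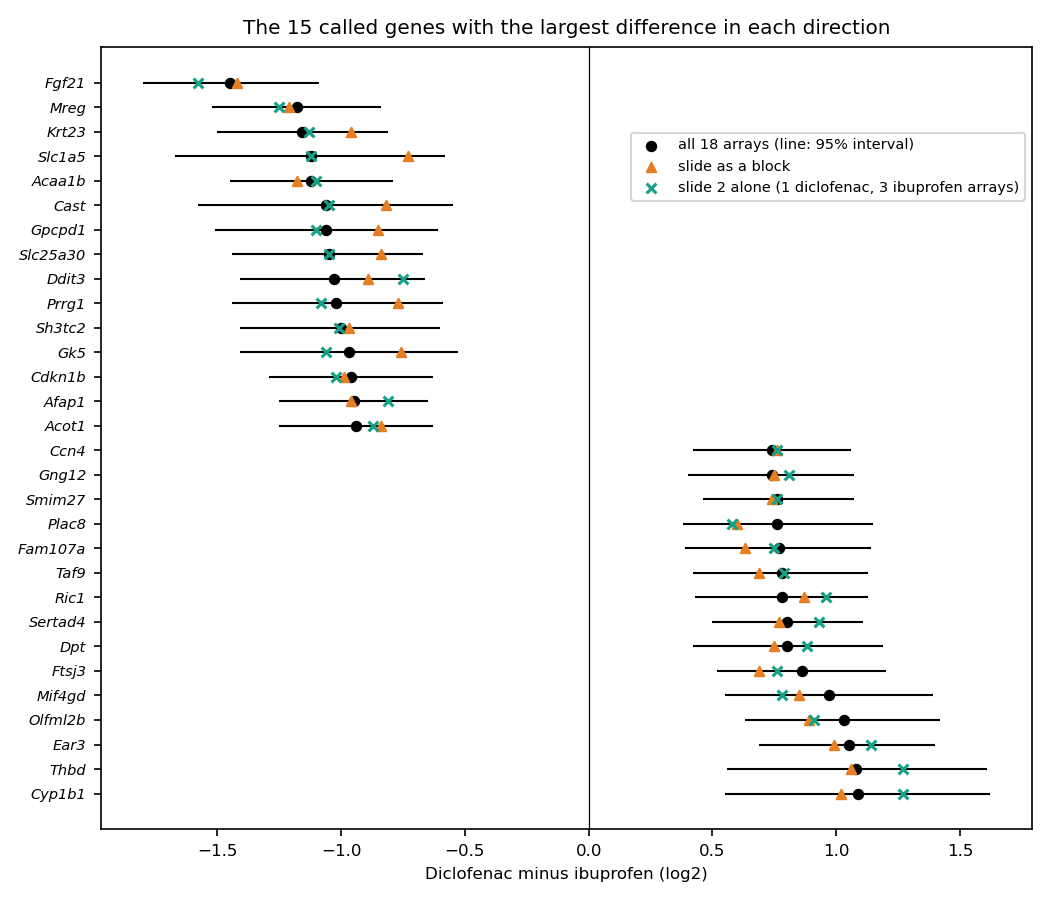
Difference between diclofenac and ibuprofen (log2, horizontal axis) for the 15 called genes with the largest difference in each direction: all 18 arrays (black points, lines for the 95% interval), slide as a block (orange triangles) and slide 2 alone (green crosses). Every estimate keeps its sign, which for slide 2 alone was fixed in advance, since the drug ranges of these genes do not overlap. For Fgf21 the values are -1.45, -1.42 and -1.58, and for Slc1a5 -1.12, -0.73 and -1.12.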

How the data were processed

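The deposited values are log2 intensities, processed by the authors, 1 per probe and array. The submitters' processing notes name GenomeStudio and lumi (versions not given in the sources used here). The 18 deposited columns hold the same sorted values (5.68 to 14.8, median 5.98, largest SD of a sorted value over arrays 0.000359). Distributions were thus made identical, which hides any shift of most transcripts. Values below the median span only 5.68 to 5.98, so differences of dim probes may be compressed. Another table, with 36 value columns that matched no sample name, was not used. Of 45281 probes, 34885 had 1 gene symbol, 18 several and 10378 none, and 34807 matched RefSeq (GRCm38.p6) by Entrez ID with 0 symbols changed. Background was the 95th percentile of 1523 olfactory, vomeronasal and trace amine receptor probes. A probe was kept where 3 or more arrays exceeded it, which left 21127 (17672 with 1 symbol), and the brightest stood for its gene.

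The fit used limma 3.58.1 in R 4.3.3 (lmFit, eBayes with intensity trend) over 18 arrays with 1 mean per group, 12 residual and 11.89 prior degrees of freedom, two-sided tests and Benjamini-Hochberg adjustment over all 10957 genes of a comparison. It was also run on simulated arrays with independent noise and no slide effect, so that run has no bearing on slide. A fold against a group below background on all arrays is a bound, given as "at least". The text names the 15 largest called genes each way, up to 6 called members a list and 24 genes regardless of value. The comparison, these genes and the 27 lists (723 entries, 525 genes measured) were chosen with earlier results of these data known, and lists are described by counts and medians with no test. Eno2, Txndc5, other list members and neighbours of the threshold that the text prints were chosen after their values were seen. The number of arrays limits the precision (median SE 0.149). Replicate numbers do not pair arrays (correlations of same-numbered deviations -0.099, -0.027 and -0.223). Alternatives covered the arrays fitted, slide, filter, scaling, probes, variance prior, array weights and single arrays left out.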

Additional observations from a re-analysis of the deposited data

How the results depend on the processing

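Between diclofenac and ibuprofen 95 genes were called. The count was 812 with only the arrays of both groups, 989 with array weights (whose estimation stopped before its tolerance was met), 702 without DMSO replicate 3 and rosiglitazone replicate 1 together, 162 with the mean of a gene's probes, 31 with no filter on low values, 17 with slide as a block and 0 in slide 2 alone in limma, where 1312 had an unadjusted p under 0.05, and 11 to 44 with 1 drug array left out. It was 130 with arrays shifted to one median, 94 with the stricter filter, 91 without the intensity trend and 80 with slide as a random block (consensus correlation 0.0919). Diclofenac against DMSO called 230 genes: 5 in slide 2 alone, 1861 with array weights, 487 without both arrays named above, and 93 to 229 with 1 array left out. Ibuprofen against DMSO called 1037: 380 with slide as a block, 152 in slide 2 alone, 685 with no filter, 3614 with array weights, 2340 without both arrays, and 413 to 1562 with 1 array left out, the highest without DMSO replicate 3. With the replicate block the counts were 105, 201 and 1017; the numbers do not pair the arrays. Over the alternatives, values of called named genes kept their side of the threshold 459 times and lost it 279 times, and 0 changed direction. List medians moved by less than their spread 446 times and by more 40 times, and named genes that had not been called passed 13 times. The cause of these moves was not tested. No array's depth is known, and levels near 6.18 have no reliable order.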

Other observations

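The other treatments of the series give context for the leading genes as group means (normalized log2 intensity, n = 3 arrays each), with no test made here. Fgf21 averaged 8.30 with diclofenac and 9.75 with ibuprofen, beside 9.85 with rosiglitazone, 9.47 with indomethacin, 8.17 with GQ16 and 7.41 with DMSO. Krt23 averaged 8.39 with diclofenac and 9.55 with ibuprofen, beside 9.61 with rosiglitazone, 9.45 with indomethacin, 8.25 with GQ16 and 7.48 with DMSO. In both genes ibuprofen stood near rosiglitazone and indomethacin, and diclofenac near GQ16. Acaa1b averaged 9.15 with diclofenac and 10.26 with ibuprofen, beside 11.80 with rosiglitazone, 10.55 with indomethacin, 9.22 with GQ16 and 7.84 with DMSO, and Elovl3 10.05 with diclofenac and 10.77 with ibuprofen, beside 11.22, 10.65, 9.56 and 8.67 in the same order.

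In Mreg, Acot1 and Ddit3 the mean with ibuprofen was above that of every other group. Mreg averaged 7.69 with diclofenac and 8.87 with ibuprofen, beside 8.06 with rosiglitazone, 8.03 with indomethacin, 7.72 with GQ16 and 7.88 with DMSO. Acot1 averaged 7.23 with diclofenac and 8.17 with ibuprofen, beside 6.97 with rosiglitazone, 7.18 with indomethacin, 7.37 with GQ16 and 7.5 with DMSO. Ddit3 averaged 12.40 with diclofenac and 13.43 with ibuprofen, beside 12.67 with rosiglitazone, 12.49 with indomethacin, 12.74 with GQ16 and 12.23 with DMSO. Olfml2b averaged 11.05 with diclofenac, 10.02 with ibuprofen, 9.54 with rosiglitazone, 10.31 with indomethacin, 11.09 with GQ16 and 11.73 with DMSO.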
